A study of Mus musculus with 16 samples.

Results

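The 47 genes described here encode chemokines and their receptors. They were taken by name and comprise 32 ligands and 15 receptors. Of the 47, 46 are among the 21631 protein-coding genes annotated on chromosomes with peaks, and the other, Cxcl11, is annotated as a transcribed pseudogene. Chemokines are small secreted proteins that steer leukocytes along concentration gradients, and they act on receptors that span the membrane and signal through G proteins. In carcinomas the ligands made by tumour cells help to set which immune cells enter the tissue. H3K27me3 is the trimethylated form of lysine 27 on histone H3, a repressive mark written by EZH2 in the Polycomb complex, and in human ovarian cancer cells EZH2 is known to hold back the interferon-induced ligands CXCL9 and CXCL10.

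H3K27me3 was profiled by ChIP-seq, with adapters added by a transposase on the beads (ChIPmentation), in the mouse line CCN6KOT, grown from a spindle metaplastic breast tumour that lacks CCN6. One group of 4 libraries came from cells given lentiviral dnTCF4, a dominant negative TCF4 that blocks transcription driven by beta-catenin, and the other group of 4 from cells that received the control lentivirus (PPGS in the labels; the series text speaks of parental cells). Both groups share the knockout, the medium and selection in puromycin, and both derive from a single tumour cell line. The labels number the libraries 1 to 4 in each group without saying whether each had its own culture. The p-values therefore reflect the spread among these libraries, which may be technical. The 8 IgG libraries were not analysed here.

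The values are the authors' peak lists, 1 per library. The dnTCF4 lists held 21492, 191, 4885 and 1838 peaks and the control lists 426, 738, 54070 and 22745, in the order of their numbers. Sequencing depth is unknown, so a gene without a peak is not shown to lack the mark, and the list lengths of the groups overlapped. RNA was not measured, so the cell type could only be set against peaks at marker genes. Of 12 epithelial markers 8 had a peak in at least 1 library, of 8 mesenchymal markers 0 and of 6 leukocyte markers 2 (Ptprc and Cd3e). Of protein-coding genes outside the chemokine list, 21.4% had one. Epithelial markers with a peak numbered 7, 8 and 6 in dnTCF4 1, control 3 and control 4, the longest lists. Each other library had 1 to 4. Peaks do not measure expression, and this is no test of the label.

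A gene was called marked in a library when a peak overlapped the gene body extended by 2 kb to each side by at least 1 base, on the mouse build mm10. At least 1 library marked 11 of the 47 genes (23.4%), where 21.4% of the 21585 other protein-coding genes were marked. At least 2 libraries marked 9 of them (19.1%, against 14.9% of other genes). The 11 genes were the ligands Cxcl9, Cxcl11, Cxcl13, Ccl24, Ccl26, Ccl28 and Xcl1 and the receptors Ccr6, Ccr7, Cxcr2 and Cxcr4. With the gene body alone, 4 genes were marked in at least 2 libraries, and without control 3 that number was 5. The share of other genes was not counted under these 2 settings.

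In dnTCF4 1, 9 of 47 chemokine genes were marked (19.1%), against 13.7% of other genes. The other dnTCF4 libraries marked 0, 2 and 1 of the 47 in the order of their numbers, where 0.255%, 5.13% and 2.41% of other genes were marked. In control 3, 10 were marked (21.3%, against 20.1% of other genes), and in control 4, 6 were marked (12.8%, against 12.5%). Control 1 marked 0 and control 2 marked 1, where 0.676% and 1.06% of other genes were marked. In both groups, then, the number of marked chemokine genes was high where the list was long and the groups overlapped. The mean share was 6.38 ± 8.69% of the 47 genes in dnTCF4 libraries and 9.04 ± 9.88% in control libraries (SD, n = 4 each), a difference smaller than either SD. That difference was -2.66 percentage points, and it was -6.91 without dnTCF4 1 and 1.42 without control 3. Because chemokine genes are short, they were also set against the 14874 other genes with windows no longer than the longest of theirs (38.8 kb). This limit caps the length and does not match it, since most chemokine windows are far shorter, so length is only partly accounted for. Of these shorter genes 10.4% were marked in dnTCF4 1, 15.7% in control 3 and 9.24% in control 4, so the chemokine share stood higher against this background, by 8.78, 5.53 and 3.52 percentage points in these libraries. The mean excess over shorter genes was 2.44 ± 4.24 percentage points in dnTCF4 libraries and 2.52 ± 2.59 in control libraries (SD, n = 4 each).

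**Figure D1:**
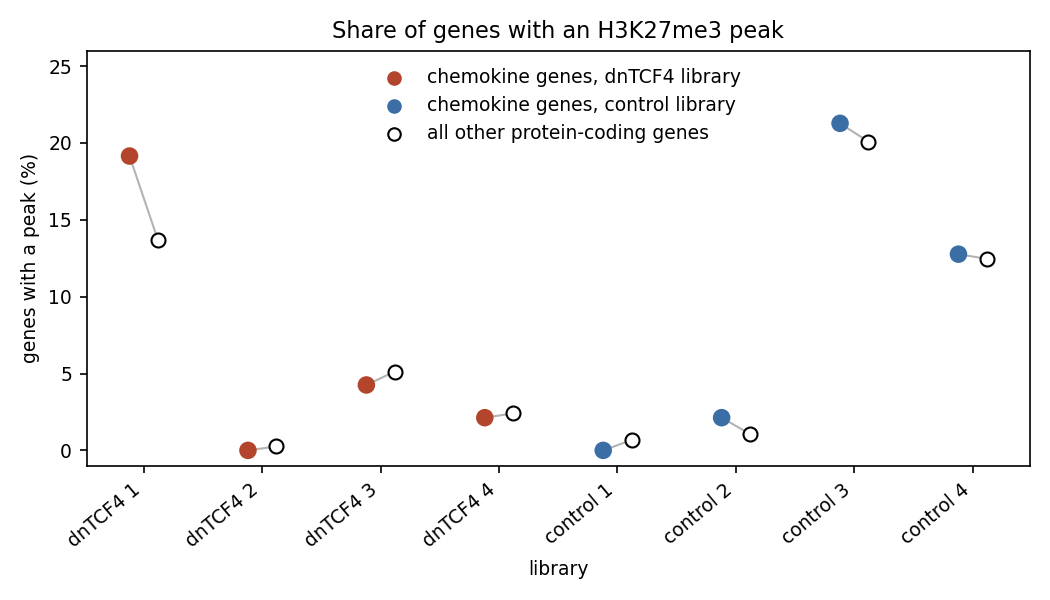
The share of genes with an H3K27me3 peak (y axis, percent) is plotted for each library (x axis), with filled points for the 47 chemokine genes, in red for dnTCF4 and blue for control libraries, and open points for all other protein-coding genes. The filled and open points lie close together in all libraries, with the widest gap in dnTCF4 1 (19.1% and 13.7%).

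The authors' fold enrichment over background ran from 2.82 to 4.46 for the 68 peaks in the windows of the 11 genes, and the −log10 q from 1.03 to 2.71, where the lowest value in any list is 1.01. No peak over a chemokine gene reached a −log10 q of 3. Such peaks were rare at other genes too, and the chemokine share minus theirs was on average -0.571 percentage points in dnTCF4 and -0.854 in control libraries. In dnTCF4 1 the median −log10 q was 1.26 for 20 peaks at chemokine genes and 1.35 for the whole list, and in control 3 it was 1.57 for 26 peaks against 1.42. Single peaks were 156 to 4883 bp wide. With q under 0.05, a threshold chosen after seeing the data, 10 of the 11 genes were still marked. Of the 4626 protein-coding genes with a peak in at least 1 library, 3912 still had one, so most genes of any kind kept their mark.

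**Figure D2:**
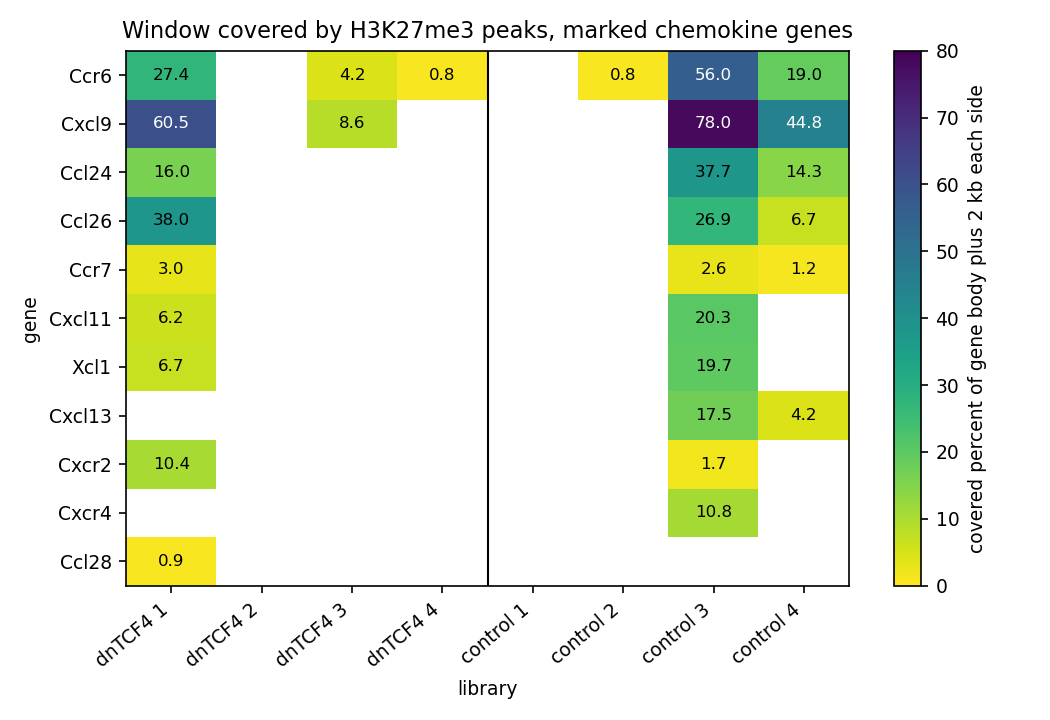
The covered percent of the window (colour and printed value) is given for the 11 marked chemokine genes (rows) in the dnTCF4 libraries (left of the line) and the control libraries (right). White cells have no peak, and the highest values are those of Cxcl9, at 60.5% in dnTCF4 1 and 78.0% in control 3.

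Among the interferon-induced ligands, Cxcl9 had the largest share of its window covered of all 47 genes, in dnTCF4 1, dnTCF4 3, control 3 and control 4. By covered length Ccr6 had more in each of these libraries. Cxcl9 (chromosome 5, 92321331 to 92328079, minus strand) encodes a ligand induced by interferon gamma that attracts activated T cells and NK cells. Peaks covered 60.5%, 0%, 8.63% and 0% of its 10.7 kb window in the dnTCF4 libraries and 0%, 0%, 78.0% and 44.8% in the control libraries, in the order of their numbers. Values were high in the 3 longest lists and low or 0 elsewhere, and the groups overlapped. By covered percent Cxcl9 ranked 18 among protein-coding genes in dnTCF4 1, 16 in control 3 and 30 in control 4, in lists that marked 2962, 4344 and 2696 of them. In dnTCF4 3 it ranked 146 of 1109 marked genes.

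The widest peaks of Cxcl9 lay over the gene body. One peak of 4883 bp in dnTCF4 1 and one of 4652 bp in control 3 ran across the start site, wider than 99.4% and 98.2% of the peaks of their lists. In control 4 the window held 7 shorter peaks, the widest of 1542 bp. Stretches of 275 and 300 bp inside the gene (chromosome 5, 92326081 to 92326355 and 92327103 to 92327402) were covered in all 4 libraries that marked the gene, with 2 from each group.

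Cxcl10 and Cxcl11, the next genes along the chromosome, were marked less or not at all. Cxcl10 (chromosome 5, 92346638 to 92348889), which acts on the same cells as Cxcl9, had no peak in its window in any library. Its nearest peaks lay 5.59 kb away in dnTCF4 1, 2.81 kb in control 3 and 2.2 kb in control 4. Cxcl11 had 6.22% of its window covered in dnTCF4 1 and 20.3% in control 3, and 0% in the other libraries. Both Cxcl10 and Cxcl11 lie within the span of Art3 (92331799 to 92414628), whose window was covered to 10.1% in dnTCF4 1, 24.0% in control 3 and 8.80% in control 4, so peaks at Cxcl11 cannot be assigned to one of them. Over the 46.0 kb from Cxcl9 to Cxcl11, peaks covered 9.19, 0, 0.928 and 0 kb in dnTCF4 libraries and 0, 0, 17.0 and 8.69 kb in control libraries. Part of this lay within Art3 between Cxcl9 and Cxcl10, outside the windows of both. From the left end of Cxcl9, a peak ran from 17.4 to 18.9 kb in dnTCF4 1, 17.3 to 19.8 kb in control 3 and 17.4 to 19.5 kb in control 4. Its −log10 q was 2.08, 2.38 and 2.33, above that of any peak in the Cxcl9 window of the same library.

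**Figure D3:**
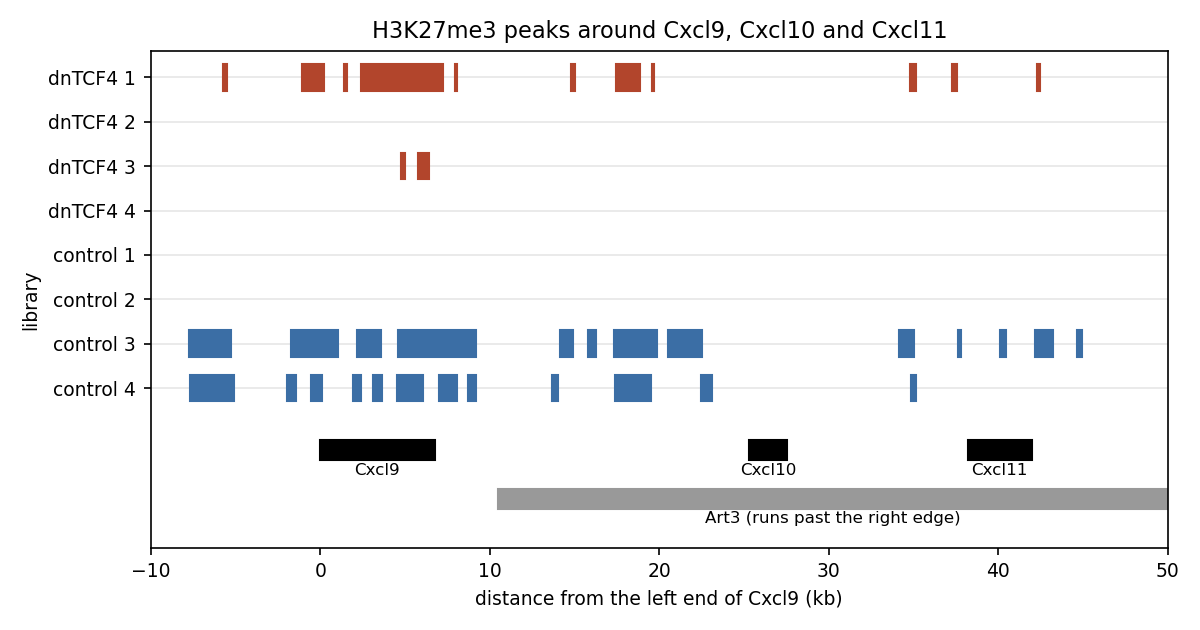
Peaks of each library (red bars for dnTCF4, blue for control) are drawn to scale around Cxcl9, Cxcl10 and Cxcl11 (black boxes) and Art3 (grey), by distance from the left end of Cxcl9 (x axis, kb). Peaks gather over Cxcl9 in dnTCF4 1, dnTCF4 3, control 3 and control 4, and a stretch around Cxcl10 is empty in all 8 lists. In dnTCF4 1, control 3 and control 4, peaks also lie between Cxcl9 and Cxcl10, within Art3.

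The promoters of Cxcl9 and its unmarked neighbour Cxcl10 are shown because the genes are neighbours that differ in their marks. They run from 250 bases before to 50 after the start, 5′ to 3′ on the gene's strand, from RefSeq on GRCm38.p6, at chr5:92328030-92328329 for Cxcl9 and chr5:92348840-92349139 for Cxcl10, both on the minus strand, with CG dinucleotides in capitals.
Cxcl9: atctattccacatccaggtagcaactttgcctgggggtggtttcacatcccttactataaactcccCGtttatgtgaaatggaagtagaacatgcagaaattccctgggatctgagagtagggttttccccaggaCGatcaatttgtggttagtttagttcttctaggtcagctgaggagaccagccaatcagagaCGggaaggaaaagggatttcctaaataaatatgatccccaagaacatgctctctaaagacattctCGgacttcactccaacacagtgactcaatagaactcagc
Cxcl10: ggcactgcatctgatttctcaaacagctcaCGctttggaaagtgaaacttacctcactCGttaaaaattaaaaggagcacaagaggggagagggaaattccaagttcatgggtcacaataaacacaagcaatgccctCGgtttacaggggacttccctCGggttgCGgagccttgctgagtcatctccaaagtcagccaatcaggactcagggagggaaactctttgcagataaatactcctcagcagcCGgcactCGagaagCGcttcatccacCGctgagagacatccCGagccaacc
The Cxcl9 promoter holds 4 CG dinucleotides and overlapped a peak in 2 libraries (dnTCF4 1 and control 3). The Cxcl10 promoter holds 10 and overlapped none.

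Of the 5 CXC ligands with the ELR motif (Cxcl1, Cxcl2, Cxcl3, Cxcl5 and Cxcl15), which attract neutrophils, none was marked in any library. They lie in a row on chromosome 5, and no list had a peak between 90577698 and 91334732, a stretch of 757 kb around them. Peak-free stretches of at least that length hold 44.2% of the span between the first and last peaks of the chromosomes, so an empty stretch of this size is common in these lists. Of the other CXC ligands, Cxcl12, Cxcl14 and Cxcl16 were unmarked. Cxcl13 (chromosome 5, 95956939 to 95961068), which guides B cells into follicles, had peaks upstream of its start that covered 0% of its window in each dnTCF4 library, and 0%, 0%, 17.5% and 4.24% in the control libraries. Cxcl13 and Cxcr4 were the genes with a peak in control libraries and none in dnTCF4 libraries, and Ccl28 the reverse. Cxcr4 and Ccl28 each had their peak in 1 library. How many other genes had peaks in 1 group alone was not counted, so these genes have no background to be set against.

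Of 18 CC ligands 3 were marked, and 2 of these are the eotaxin genes Ccl24 and Ccl26 (the eotaxin Ccl11, on chromosome 11, was unmarked in all 8 libraries), which lie next to each other on chromosome 5 and whose products attract eosinophils in humans. Ccl24 (135569935 to 135573123) was covered to 16.04% in dnTCF4 1 and to 0% in the other 3 dnTCF4 libraries, and to 37.7% in control 3, 14.3% in control 4 and 0% in control 1 and 2. Ccl26 (135560448 to 135563569) was covered to 38.0% in dnTCF4 1, and to 26.9% in control 3 and 6.71% in control 4, with 0% elsewhere. Marks on both genes were thus found in the 3 longest lists alone. The peaks that these libraries placed beside Ccl24 shared 644 bp (135573566 to 135574209), and the one in dnTCF4 1 had the highest −log10 q of all peaks over chemokine genes (2.71). At Ccl26 the shared stretch was 221 bp (135564918 to 135565138), also outside the gene body. Ccl28, a ligand of mucosal epithelia, had 1 peak of 305 bp inside the gene in dnTCF4 1, over 0.883% of its window.

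The other 15 CC ligands were unmarked in every library. Ccl20 and Ccl25 lie apart from the rest, and most of the others form groups. On chromosome 11, no list had a peak between 81957418 and 82227641, a stretch of 270 kb around Ccl2, Ccl7, Ccl11, Ccl12, Ccl8 and Ccl1, the monocyte and eosinophil attractants. None had one between 83434874 and 83668572, a stretch of 234 kb that holds Ccl5, Ccl9, Ccl6, Ccl3 and Ccl4. On chromosome 8, Ccl22, Cx3cl1 and Ccl17 sat in a stretch of 144 kb without a peak, with the nearest one 2.75 kb from Ccl22 in dnTCF4 1. Stretches of at least these lengths hold 65.8%, 68.4% and 75.4% of the span. Xcl1, which attracts cross-presenting dendritic cells, was covered to 6.73% in dnTCF4 1 and 19.7% in control 3, where the peaks of the 2 libraries shared no base.

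Among receptors, Ccr6 was marked in the most libraries of all 47 genes. Only Ccl25 (38.8 kb) and Ccl28 (34.5 kb) had longer windows than its 26.5 kb, and a longer window leaves more room for a peak. The share of other genes marked in as many libraries was not counted. Ccr6 (chromosome 17, 8236041 to 8258519, plus strand) encodes the receptor of Ccl20 on lymphocytes and dendritic cells. Peaks covered 27.4%, 0%, 4.23% and 0.812% of its 26.5 kb window in the dnTCF4 libraries and 0%, 0.763%, 56.0% and 19.0% in the control libraries, in the order of their numbers. The 6 libraries that marked it, 3 of each group, overlapped between groups. All 6 covered the same 174 bp inside the gene (chromosome 17, 8247042 to 8247215), 11.0 kb from the first start site. In dnTCF4 4 and control 2 this was the sole peak over a chemokine gene, 215 and 202 bp wide, with a fold enrichment of 4.46 and 4.45. Both lay below the median fold of their lists (4.48 and 4.59). The longer lists extended it to 4170 bp in dnTCF4 1 and 4000 bp in control 3. A further peak covered the first start site in control 3 and control 4, and in dnTCF4 1 one ended shortly before it. In dnTCF4 3 a peak lay upstream of it, at -1.69 to -1.295 kb. By covered percent Ccr6 ranked 173 in dnTCF4 1, 94 in control 3 and 247 in control 4.

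**Figure D4:**
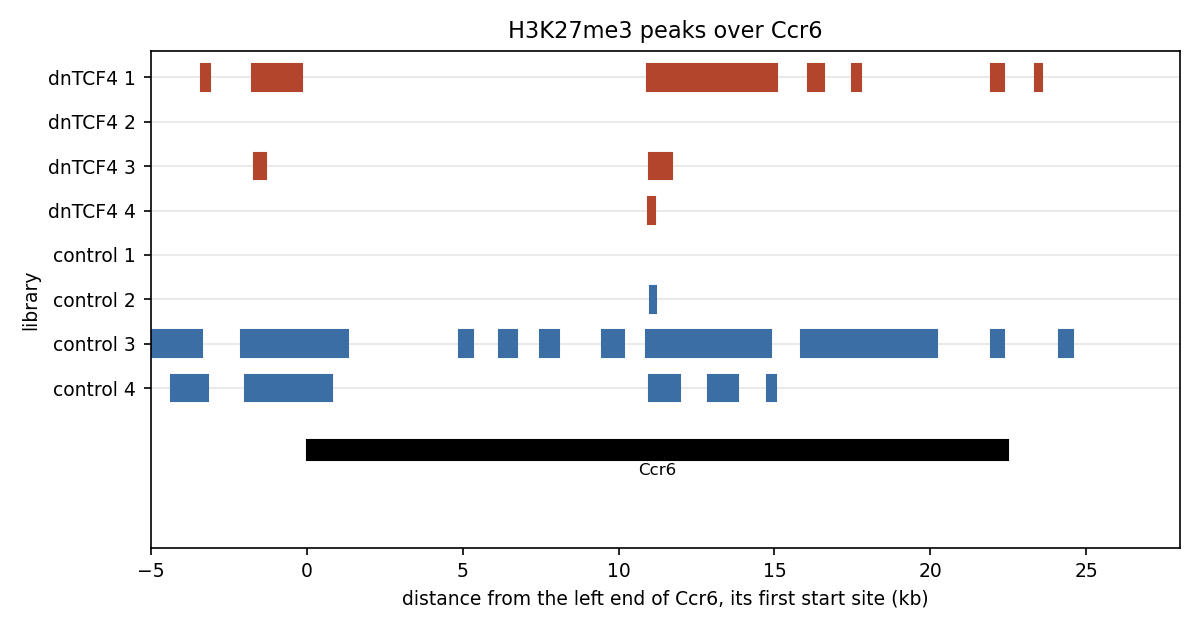
Peaks of each library (red bars for dnTCF4, blue for control) are drawn to scale over Ccr6 (black box), by distance from its first start site (x axis, kb). The 6 libraries with a peak meet at 11.0 kb, and the 3 longest lists also have a peak that ends shortly before 0 kb (dnTCF4 1) or crosses it (control 3 and control 4). In dnTCF4 3 a peak lies at -1.69 to -1.295 kb.

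The first promoter of Ccr6 (chr17:8235793-8236092, plus strand, GRCm38.p6, RefSeq, 5′ to 3′, with CG dinucleotides in capitals) is shown because it overlapped a peak in 3 libraries, the most of any promoter in the list, beside that of Cxcr4 (chr1:128592250-128592549, minus strand), which overlapped a peak in control 3.
Ccr6: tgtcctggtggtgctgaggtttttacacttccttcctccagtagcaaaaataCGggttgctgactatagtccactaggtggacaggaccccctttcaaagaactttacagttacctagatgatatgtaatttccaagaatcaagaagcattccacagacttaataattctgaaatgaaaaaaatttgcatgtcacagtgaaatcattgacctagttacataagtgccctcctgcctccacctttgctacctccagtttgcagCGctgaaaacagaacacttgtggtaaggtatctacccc
Cxcr4: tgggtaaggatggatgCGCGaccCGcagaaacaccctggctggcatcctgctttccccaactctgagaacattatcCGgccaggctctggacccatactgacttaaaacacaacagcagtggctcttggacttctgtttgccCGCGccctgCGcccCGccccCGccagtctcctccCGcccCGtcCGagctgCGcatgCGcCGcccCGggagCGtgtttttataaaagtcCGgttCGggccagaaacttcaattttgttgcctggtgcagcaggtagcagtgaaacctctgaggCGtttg
They differ in CG content, with 2 dinucleotides in the Ccr6 and 20 in the Cxcr4 promoter.

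Of the other marked receptors, Ccr7 and Cxcr2 had peaks beside the gene body and Cxcr4 had 1 over its start. Ccr7 (chromosome 11, 99144199 to 99155077), which brings dendritic cells and naive T cells into lymph nodes, was marked at the edge of its window alone, over 3.03% in dnTCF4 1, 2.63% in control 3 and 1.196% in control 4. No peak touched its gene body, and the 3 libraries shared a stretch that begins at 99156900. Cxcr2 (chromosome 1, 74153994 to 74161246), the neutrophil receptor for the ELR ligands, was covered to 10.4% in dnTCF4 1 and 1.74% in control 3, at opposite ends of its window and outside its gene body. Cxcr4 (chromosome 1, 128588199 to 128592299), the receptor of Cxcl12, had 1 peak over its start in control 3, over 10.8% of its window.

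Of the 15 receptors 11 were unmarked. Ccr9, Cxcr6, Xcr1, Ccr1, Ccr3 and Ccr2 lie within 346 kb near the end of chromosome 9, and the last peak of any list on that chromosome ended 29.2 kb before this group. Cx3cr1 and Ccr8 were unmarked, but peaks lay between them, covering 1.55 kb in dnTCF4 1, and 2.59 kb in control 3 and 2.21 kb in control 4. Ccr4, Ccr10 and Cxcr5 make up the rest. Over all 36 unmarked genes, the nearest peak of any library lay at a median of 68.5 kb, and for 12 genes it lay 100.4 kb or more away. Just outside the 2 kb limit were Cxcr5 (2.16 kb), Cxcl10 (2.2 kb), Ccl22 (2.75 kb), Ccl4 (3.89 kb) and Ccr8 (4.72 kb).

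**Figure D5:**
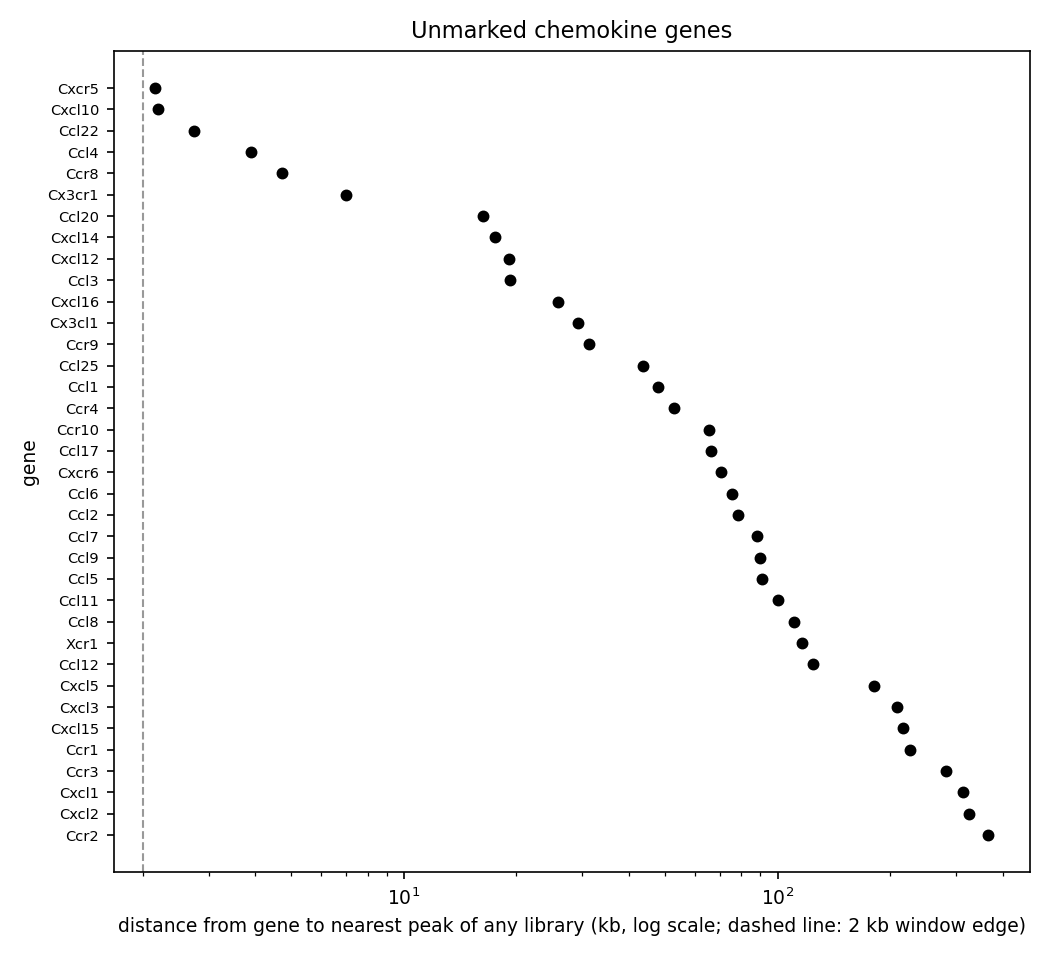
Each point is 1 of the 36 chemokine genes without a peak in its window, placed by the distance from the gene to the nearest peak of any of the 8 libraries (x axis, kb, log scale). Distances run from 2.16 kb for Cxcr5 to 366 kb for Ccr2, and the 5 ELR ligands lie between 182 and 326 kb.

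Promoters were rarely under the peaks. The RefSeq promoter table holds 34 of the 47 genes. Of these, 2 (5.88%) had a peak at a promoter in dnTCF4 1 and 3 (8.82%) in control 3. Control 4 had 1 (2.94%), and the other libraries 0. Of 17274 protein-coding promoters in the table, 0.706%, 1.69% and 0.556% overlapped a peak in dnTCF4 1, control 3 and control 4. In control 3 that share was 3.79% for promoters with under 5 CG dinucleotides in 300 bases and 0.181% for those with 15 or more. With under 5, it was 1.26% in dnTCF4 1 and 1.31% in control 4. The chemokine shares were higher than these in the 3 libraries but rest on 1 to 3 genes each. Chemokine promoters were poor in CG, with a median of 3 in the 7 marked and 3 in the 27 unmarked genes of the table, against 14 over all. The TCF core motif CTTTGAT, searched on both strands, was found in the promoters of 2 of the 34 genes (Cxcl12 and Xcr1, both unmarked) and in 3.29% of all. These matches describe letters and not bound sites.

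The comparison of dnTCF4 with control cells asks how blocking beta-catenin and TCF bears on the mark, and it found no chemokine gene whose covered percent differed between the groups beyond the spread of libraries. The exact permutation test, two-sided over the 70 assignments of 8 libraries to 4 and 4, was run on the 4626 protein-coding genes with a peak and adjusted by the Benjamini-Hochberg method. It called 0 of 10 chemokine genes, and 0.0% of all genes tested, at an adjusted p under 0.05. At an unadjusted p under 0.05 it called 0 of 10, and 1 gene (0.0216%) of all. In this test an unadjusted p under 0.05 needs peaks in at least 4 libraries. Of the 10 genes only Cxcl9 and Ccr6 had that many, so the test could not call the others. Fisher's exact test on marked or unmarked libraries called 0 at either threshold. Its p falls under 0.05 only for a gene with peaks in all 4 libraries of 1 group and none in the other. The smallest p these assignments allow is 0.0286, so adjustment over 4626 genes left no single gene able to pass.

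Ccr6 averaged 8.12 ± 13.0% covered in dnTCF4 libraries and 18.9 ± 26.2% in control libraries (SD, n = 4 each; difference -10.8 percentage points, exact permutation p = 0.686, adjusted p = 1). Cxcl9 averaged 17.3 ± 29.1% in dnTCF4 and 30.7 ± 38.0% in control libraries (SD, n = 4 each; difference -13.4 percentage points, exact permutation p = 0.714, adjusted p = 1). Without control 3, the longest list, the differences turned to 1.54 for Ccr6 and 2.37 for Cxcl9. The smallest p among the 10 genes was 0.429, for Cxcl13, whose mean was 0% in dnTCF4 and 5.43 ± 8.28% in control libraries (SD, n = 4 each; exact permutation, adjusted p = 1). Cxcl13 had peaks in 2 libraries, and 0.429 is the smallest p that the exact permutation test can give such a gene. Of the 10 genes 7 had the lower mean in dnTCF4 libraries, as did 88.8% of all genes tested. The exceptions were Ccl26, Ccl28 and Cxcr2. The median difference of the 10 was -2.97 percentage points, and that of all genes tested was -1.03. Cxcl11 was not among the genes tested because of its class.

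Other genes of the pathway were taken from lists by function. Of 9 further chemokine system genes 3 were marked in at least 1 library (Ackr2, Ccrl2 and Cxcr1), of 15 genes that act downstream of the receptors 4 (Pik3cg, Elmo1, Rac2 and Vav1), and of 20 genes of upstream inducers 3 (Il1a, Il1b and Il17a). These shares were 33.3%, 26.7% and 15% of the lists, around the 21.4% of protein-coding genes outside the chemokine list that were marked. None of them passed the test between the groups, adjusted or unadjusted. Only Elmo1, Rac2 and Vav1 had peaks in the 4 or more libraries that an unadjusted p under 0.05 needs. Rac2, a GTPase of leukocyte migration, was covered to 10.3% in dnTCF4 1 and 2.84% in dnTCF4 3, and to 19.96% in control 3 and 4.803% in control 4. Cxcr1, the neighbour of Cxcr2, was covered to 0% in all 4 dnTCF4 libraries, and to 4.02%, 0%, 14.7% and 8.17% in the control libraries (n = 4 each, exact permutation p = 0.143, adjusted p = 1). For a gene with peaks in 3 libraries, as Cxcr1 had, 0.143 is the smallest p that the exact permutation test can give. Nfkb1, Rela and Irf1, transcription factors that switch on chemokine genes, had no peak in their windows in any library.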

How the data were processed

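The deposited lists are on mm10 and have 9 columns without a header. The submitters' processing notes name MACS2 2.1.2, Bowtie2 2.3.4.1, bedtools 2.28.0, SAMtools 1.2, Picard 2.20.2, cutadapt and Trim Galore (options and use of IgG not given in the sources used here). Values per peak by the authors are a score, a fold enrichment ratio, a −log10 p-value and a −log10 q-value. The last and the fold were used to describe and filter peaks. Each list names its peaks after 1 library, so calling was done library by library.

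Windows were placed on RefSeq genes of GRCm38.p6, where all 47 symbols matched. Covered bases were computed with Python 3.11.15, NumPy 2.4.6 and pandas 2.3.3, and covered percent was tested with two-sided exact permutation tests, checked on simulated data. Members, lists and tests were chosen with earlier results of these data known. The genes named are the 47 members, with values in every library for those marked in at least 2, and pathway genes from the lists. Alternatives varied the window, the peak threshold, the overlap, the libraries, the comparison genes and the test. The gene table has no exons, so peaks were not assigned to exons or introns.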

Additional observations from a re-analysis of the deposited data

Results flagged for a closer look

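In a group of 4 libraries, a value was singled out when its gap to the nearest other value, divided by the range, passed Dixon's critical value at the 95% level. For normally distributed values chance gives this in about 1 of 20 groups. Values here include zeros, so that rate does not apply to them. Of 14 groups examined 3 met this, and in each the library was dnTCF4 1, the longest dnTCF4 list. Peaks in dnTCF4 1 covered 60.5% of the Cxcl9 window, against 0% to 8.63% in the other dnTCF4 libraries. They covered 27.4% of the Ccr6 window, against 0% to 4.23%. From Cxcl9 to Cxcl11 they covered 9.19 kb, against 0 to 0.928 kb. This stretch contains the Cxcl9 window, so those flags are not separate. The part of list length in these values was not tested.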

How the results depend on the processing

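The adjusted test called 0 genes under every alternative run, but with so few libraries a single gene could hardly pass, so this says nothing about stability. Of the same-numbered pairs of libraries, number 2 deviated together (r = 0.654) and numbers 1, 3 and 4 did not (r = -0.653, -0.0388 and -0.477), so the samples were not treated as paired. The replicate block gave 0 calls, and its smallest possible exact p of 0.125 allows none.

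Promoter counts cover the 34 genes in the promoter table, which holds 7 of the 11 marked genes, so they change the gene set as well as the window. The 11 genes marked in at least 1 library became 3 with promoters alone, and 0 both with −log10 q of at least 3 and with lists of equal length (the shortest list holds 191 peaks). Protein-coding genes with a peak fell as well. They numbered 4626 at first, 380 with promoters alone, 664 with −log10 q of at least 3 and 252 with lists of equal length. The losses are thus not particular to chemokine genes. The 9 marked in at least 2 libraries became 4 with the gene body alone, 2 with promoters alone, 0 both with −log10 q of at least 3 and with lists of equal length, and 4 with at least 10% of the window covered. Leaving out 1 library gave 5 (control 3) to 9. Other genes marked in at least 2 libraries were not counted under these settings, so these counts have no background. The chemokine share minus that of other genes in control libraries (0.473 percentage points) became -1.29 with the gene body alone, 3.29 with 5 kb, 2.3 with promoters, -0.854 with −log10 q of at least 3, 3.31 with at least 10% covered and 2.52 against shorter genes. In dnTCF4 libraries it was 1.01, and ran from -0.615 with the gene body alone to 2.44 against shorter genes. Without dnTCF4 1 it was -0.470, and with −log10 q of at least 3 it was -0.571. With lists of equal length it was -0.338 in dnTCF4 and -0.328 in control libraries.

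Signs of single differences, dnTCF4 minus control in percentage points, turned as follows, and the cause was not tested. Leaving out 1 library gave -8.40 to 7.25 for Ccl26, -27.8 to 2.37 for Cxcl9, -4.93 to 1.68 for Xcl1, -17.2 to 1.54 for Ccr6, -0.958 to 0.359 for Ccr7 and -0.435 to 3.04 for Cxcr2. Each range ends at the value without dnTCF4 1 on its low side, and, except for Cxcr2, at the value without control 3 on its high side. Cxcr2 became -3.29 with 5 kb and -0.435 with q under 0.05, a threshold chosen after seeing the data. Ccl26 became -5.13 with q under 0.05 and -4.15 in libraries with at least 1000 peaks.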
